A study of Mus musculus with 8 samples.

Results

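Macrophage transcripts were followed in RNA-Seq of whole mouse pancreas through 9 genes, chosen by name: *Csf1r*, *Adgre1*, *Cd68*, *Lyz2*, *Mrc1*, *Cd163*, *Marco*, *Trem2*, and *Gpnmb*. Every one of them was found, as 9 of the 48709 genes listed for each library. The study asked what loss of *Pfkfb3*, which encodes a regulator of glycolysis, does to alcohol-related severe acute pancreatitis (SAP). All mice were males 8 weeks old, and pancreata were taken at 24 h. The WT saline and WT FAEE-SAP mice were wild type, and the cKO saline and cKO FAEE-SAP mice carried floxed *Pfkfb3* alleles together with a *Pdx1*-driven Cre, which acts in pancreatic epithelium. The saline groups were the controls, and the FAEE-SAP groups received palmitoleic acid (POA) with ethanol, from which fatty acid ethyl esters (FAEE) form. Each of the 4 groups had 2 libraries, 8 in all, from separate biological samples by the design text. *P* values therefore measure the spread between these 2, after the variance of each gene was drawn toward that of genes at like levels. WT mice were purchased and not described as littermates of the cKO mice, so strain source and genotype cannot be told apart.

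Macrophages arise from embryonic precursors that settle in tissues and from blood monocytes that enter later, above all in inflammation. Their survival depends on CSF1 receptor signaling, and the lineage factor PU.1 drives many of their genes. Resident cells in healthy tissue carry scavenger receptors such as the mannose receptor, whereas cells in injured tissue can take on inflammatory or lipid-handling programs. In pancreatitis, macrophages take up debris of acinar cells and release cytokines.

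The deposited values were RPKM, by definition read counts divided by exon length and by the mapped reads of the library. How they were computed is not given in the sources used here. Library totals worked out from them were 22.9 to 37.7 M reads. The acinar markers, digestive enzyme genes and their regulators, took 36.7% to 37.7% of summed RPKM in saline libraries and 31.2% to 31.6% in WT FAEE-SAP libraries. In cKO FAEE-SAP libraries they took 35.5% and 35.7%. The median log2 change of all genes as deposited was 1.24 for FAEE-SAP against saline in WT and −0.91 for cKO against WT with FAEE-SAP. Values were scaled by the median of ratios across libraries, and levels below are scaled RPKM unless stated otherwise. Levels were scaled over all 8 libraries, and each test within its own comparison. Tests were made with limma over all genes that reached an RPKM of 0.5 in 2 or more of the libraries compared, and a gene was called at a Benjamini-Hochberg adjusted *P* under 0.05 with at least a 2-fold change. 3 libraries stood apart. WT saline 2 and cKO FAEE-SAP 1 had summed lymph node markers of 79.3 and 68.0 against 33.0 to 49.5 in the others. cKO saline 1 had *Fabp2*, an intestinal fatty acid binding protein, at 8.89, and the gene was listed at 0 in the other 7 libraries.

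*Lyz2*, which encodes the lysozyme of myeloid cells, was the most abundant of the 9 in every library, at 38.1 to 60.4 scaled RPKM. *Marco* followed with 6.76 to 32.9. *Csf1r* lay between 3.18 and 6.49, *Cd68* between 1.81 and 6.06, *Mrc1* between 0.994 and 4.22, *Cd163* between 1.46 and 2.93, and *Adgre1* between 0.958 and 3.37. *Gpnmb* stayed at or under 0.532, and *Trem2* at or under 0.280. Whole tissue was measured, so fewer macrophages and less RNA per macrophage cannot be told apart in any of these values.

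**Figure D1:**
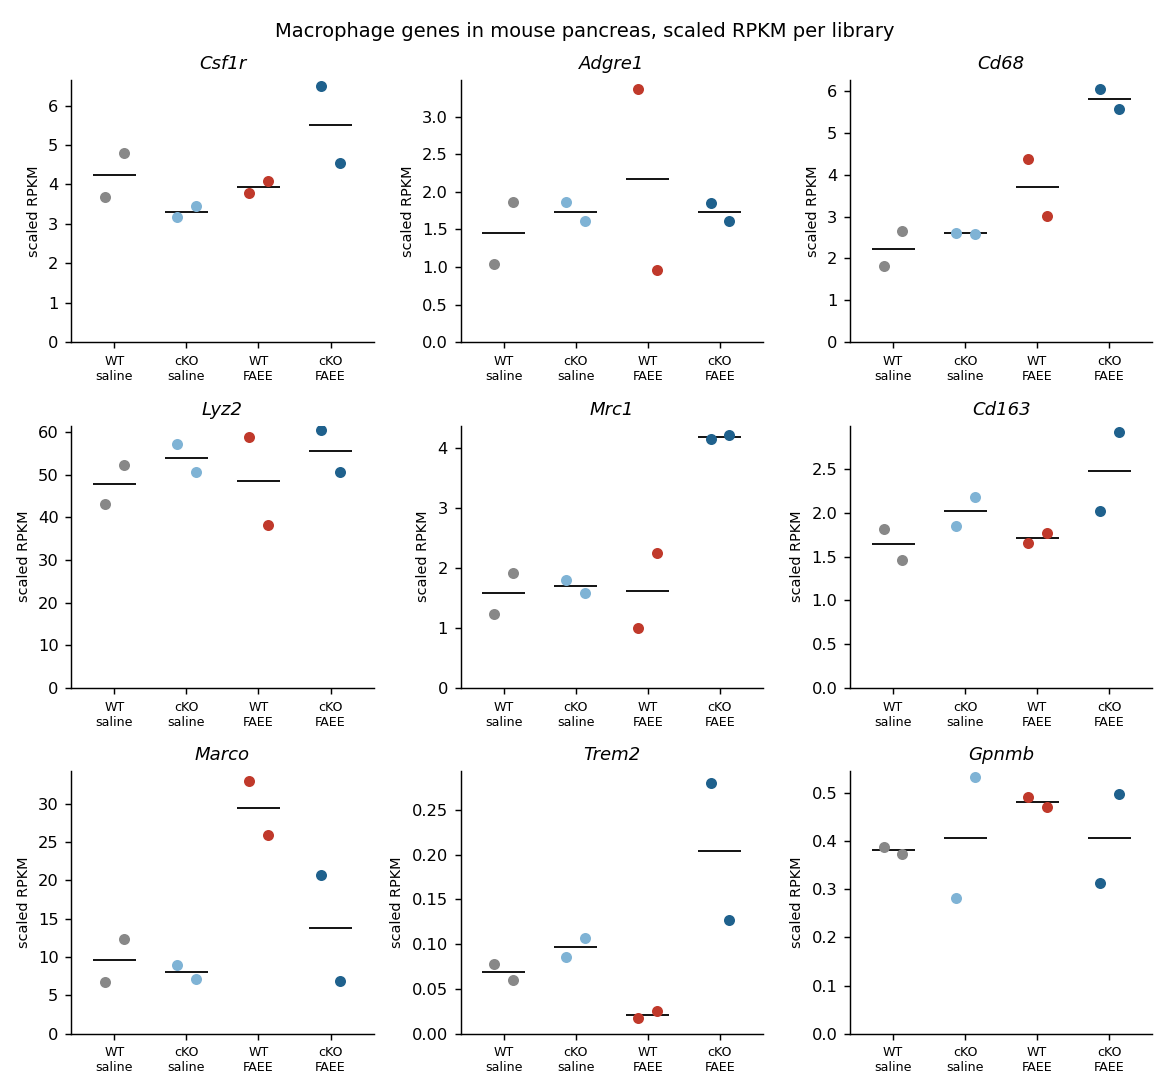
Scaled RPKM of the 9 macrophage genes in each library (points) with the group mean (line), by genotype and treatment, on linear axes that start at 0. *Marco* was highest in the WT FAEE-SAP libraries, at 25.9 and 32.9, whereas *Mrc1* was highest in the cKO FAEE-SAP libraries, at 4.15 and 4.22.

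*Marco* encodes a class A scavenger receptor that binds bacteria and particles and is induced on activated macrophages. Its scaled RPKM was 6.76 and 12.4 in WT saline, 32.9 and 25.9 in WT FAEE-SAP, 9.02 and 7.19 in cKO saline, and 20.7 and 6.82 in cKO FAEE-SAP. Both WT FAEE-SAP libraries were above every other library, and the libraries of the other 3 groups overlapped except for the first cKO FAEE-SAP library, which was above all saline libraries. In WT, *Marco* rose after FAEE-SAP by 1.66 on the log2 scale (SE 0.31, adjusted *P* = 0.0382), the single call among the 8 macrophage genes tested there. Of all 10894 genes tested, 3.08% were called higher. This call was lost without WT saline 1 (adjusted *P* = 0.0821), without WT FAEE-SAP 1 (adjusted *P* = 0.118), and without WT FAEE-SAP 2 (adjusted *P* = 0.151). It was also lost with no filter on low values (adjusted *P* = 0.0723), without the trend in the variance (0.0562), with all 8 libraries in 1 model (0.0794), and with the replicate number as a block (0.0641). With voom on worked-out reads, a fit added after the values were seen, it was kept (1.69, adjusted *P* = 0.0175), again the single call among the macrophage genes. In cKO the log2 change was 0.59 (SE 0.57, adjusted *P* = 0.743), and it was −0.20 without cKO FAEE-SAP 1. Between genotypes with FAEE-SAP, *Marco* differed by −1.30 in cKO against WT (SE 0.50, adjusted *P* = 0.238). Without cKO FAEE-SAP 1, which had the high lymph node markers, the difference was −2.07 and passed the test (adjusted *P* = 0.0368), and without cKO FAEE-SAP 2 it was −0.52 and did not (adjusted *P* = 0.375). Summed pan-leukocyte markers (7 genes) were 39.5 in that library and 21.2 in cKO FAEE-SAP 2, and their part in the *Marco* level was not tested.

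*Mrc1* encodes the mannose receptor, an endocytic receptor of resident and alternatively activated macrophages. Scaled RPKM of this gene was 1.24 and 1.92 in WT saline, 0.994 and 2.25 in WT FAEE-SAP, 1.81 and 1.59 in cKO saline, and 4.15 and 4.22 in cKO FAEE-SAP. Both cKO FAEE-SAP libraries were above every other library, and the other 3 groups overlapped. The log2 change after FAEE-SAP was 1.27 in cKO (SE 0.17, adjusted *P* = 0.201) and −0.044 in WT (SE 0.42, adjusted *P* = 0.960). Between genotypes with FAEE-SAP it was 1.43 (SE 0.39, adjusted *P* = 0.150), with 0.84 when WT FAEE-SAP 1 was left out and 1.97 when WT FAEE-SAP 2 was. None of these passed the test, and the pair of cKO FAEE-SAP libraries lay close together.

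A ratio of 2 genes within a library is free of the scaling. The pair was chosen after the values were seen, and the ratios are given without a test. RPKM of *Marco* over *Mrc1* was 5.46 and 6.44 in WT saline and 4.99 and 4.51 in cKO saline. The WT FAEE-SAP libraries reached 33.1 and 11.5, whereas cKO FAEE-SAP stood at 4.99 and 1.62. Hence the 2 highest ratios were those of WT FAEE-SAP, and the lowest was that of cKO FAEE-SAP 2.

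*Cd68* encodes a lysosomal glycoprotein found in nearly all macrophages and in other phagocytes. In scaled RPKM it was at 1.81 and 2.66 in WT saline, 4.37 and 3.03 in WT FAEE-SAP, 2.61 and 2.59 in cKO saline, and 6.06 and 5.57 in cKO FAEE-SAP. The order of the groups was cKO FAEE-SAP, WT FAEE-SAP, and then the saline groups, which overlapped each other. The log2 change after FAEE-SAP was 1.15 in cKO (SE 0.17, adjusted *P* = 0.231) and 0.70 in WT (SE 0.29, adjusted *P* = 0.184). With FAEE-SAP, cKO exceeded WT by 0.65 (SE 0.25, adjusted *P* = 0.228, and 0.38 to 0.89 with 1 library left out), so that none of these differences passed the test.

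*Csf1r* encodes the receptor for CSF1 and IL-34. Its scaled RPKM was 3.68 and 4.79 in WT saline, 3.79 and 4.08 in WT FAEE-SAP, 3.18 and 3.45 in cKO saline, and 6.49 and 4.55 in cKO FAEE-SAP. The WT groups overlapped, and cKO saline was lowest. The log2 change was 0.72 after FAEE-SAP in cKO (SE 0.25, adjusted *P* = 0.493), −0.098 in WT (SE 0.21, adjusted *P* = 0.810), and −0.36 for cKO against WT with saline (SE 0.20, adjusted *P* = 0.999). With 1 library left out, the change in cKO ran from 0.48 (without cKO FAEE-SAP 1) to 1.04 (without cKO FAEE-SAP 2), and the difference with saline from −0.57 (without WT saline 1) to −0.15 (without WT saline 2). Of the ligands, *Csf1* was at 0.596 and 1.18 scaled RPKM in WT saline, 1.88 and 1.14 in WT FAEE-SAP, 0.767 and 0.372 in cKO saline, and 1.79 and 0.785 in cKO FAEE-SAP. Its log2 change after FAEE-SAP was 0.74 in WT (adjusted *P* = 0.284) and 1.01 in cKO (adjusted *P* = 0.575), where it reached the RPKM minimum through the FAEE-SAP libraries alone. *Il34* stayed between 0.218 and 0.342 in all 8 libraries.

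*Trem2* encodes a lipid-sensing receptor of lipid-associated macrophages that signals through TYROBP. It was under the RPKM minimum in every library, so it was not in the tests above, and its reads were worked out from RPKM, exonic length (4946 bases), and library total. They came to 8 and 7 in WT saline, 4 and 8 in WT FAEE-SAP, 10 and 11 in cKO saline, and 40 and 19 in cKO FAEE-SAP. Scaled RPKM was 0.0783 and 0.0598, 0.0174 and 0.0255, 0.0862 and 0.107, and 0.280 and 0.127 in the same order. Hence WT FAEE-SAP was below all other libraries and cKO FAEE-SAP above them. The 59 reads of cKO FAEE-SAP against the 12 of WT FAEE-SAP gave a scaled ratio of 9.14, with an exact interval of 4.86 to 18.7 (95%) that covers counting error only. The size depended on the scaling, since the ratio of mean RPKM between these groups was 9.49 scaled and 4.93 as deposited. For WT FAEE-SAP against WT saline it was 0.311 scaled and 0.778 as deposited. A limma voom fit on worked-out reads, added after the values were seen, gave a log2 difference of 2.98 (SE 0.70, adjusted *P* = 0.101 over 13402 genes), which did not pass the threshold. *Trem2* met the minimum for that fit through the cKO FAEE-SAP libraries alone, so that the fit is no support beyond the reads. The same model gave 0.94 for FAEE-SAP against saline in cKO (SE 0.64, adjusted *P* = 0.684). *Tyrobp* itself was at 12.3 and 5.96 scaled RPKM in cKO FAEE-SAP and at 8.66 and 6.39 in WT FAEE-SAP.

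**Figure D2:**
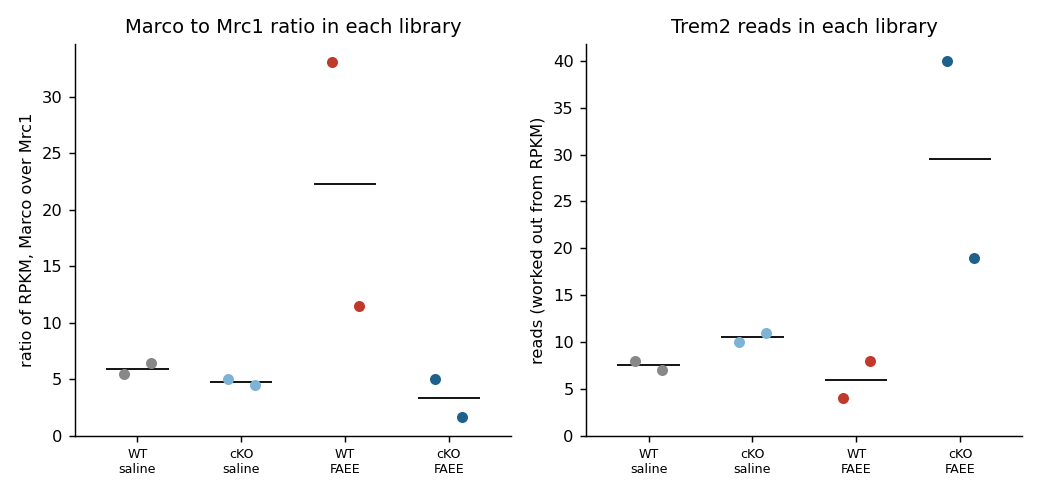
Left, deposited RPKM of *Marco* divided by that of *Mrc1* in each library; right, reads of *Trem2* worked out from RPKM in each library. Points are libraries and lines are group means. The ratio was 33.1 and 11.5 in WT FAEE-SAP and at most 6.44 elsewhere, and *Trem2* had 40 and 19 reads in cKO FAEE-SAP and at most 11 elsewhere.

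The 250 bases before the RefSeq start site are printed for *Marco*, *Mrc1*, *Cd68*, and *Trem2* (build GRCm38.p6), because these are the members in which a motif searched for was found. *Marco* lies at chr1:120474538-120505024 on the minus strand, *Mrc1* at chr2:14229392-14332057 on the plus strand, *Cd68* at chr11:69664213-69666153 on the minus strand, and *Trem2* at chr17:48346401-48354147 on the plus strand. Capitals mark matches on either strand to the PU.1 core (GAGGAA), the AP-1 site (TGANTCA), an E-box of the MITF family (CATGTG), and the C/EBP site (TTGCNNAA).
Marco: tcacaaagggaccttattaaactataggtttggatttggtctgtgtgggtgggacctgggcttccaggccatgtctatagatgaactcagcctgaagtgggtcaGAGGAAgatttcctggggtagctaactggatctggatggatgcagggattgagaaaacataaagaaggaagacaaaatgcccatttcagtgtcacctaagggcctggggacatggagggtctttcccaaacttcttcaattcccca
Mrc1: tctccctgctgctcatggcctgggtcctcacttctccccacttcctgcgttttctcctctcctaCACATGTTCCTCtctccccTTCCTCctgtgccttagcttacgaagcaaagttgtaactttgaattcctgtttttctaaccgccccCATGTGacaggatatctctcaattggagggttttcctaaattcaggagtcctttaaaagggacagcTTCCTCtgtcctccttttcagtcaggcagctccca
Cd68: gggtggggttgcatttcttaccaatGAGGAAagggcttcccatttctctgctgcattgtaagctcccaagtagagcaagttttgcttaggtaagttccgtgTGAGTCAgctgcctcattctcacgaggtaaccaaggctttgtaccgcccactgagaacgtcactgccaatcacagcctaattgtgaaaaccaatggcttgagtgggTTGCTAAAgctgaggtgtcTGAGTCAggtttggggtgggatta
Trem2: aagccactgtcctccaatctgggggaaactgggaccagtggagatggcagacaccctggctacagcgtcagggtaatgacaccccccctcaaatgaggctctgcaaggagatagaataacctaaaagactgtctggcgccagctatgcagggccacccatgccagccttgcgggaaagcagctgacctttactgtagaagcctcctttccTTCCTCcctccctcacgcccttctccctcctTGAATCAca

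The windows are chr1:120505025-120505274, chr2:14229164-14229413, chr11:69666171-69666420, and chr17:48346151-48346400, in the order printed, each read 5′ to 3′ along its gene. Of the 9 genes, 7 had an entry in the promoter table, and *Adgre1* and *Csf1r* had none. The PU.1 core matched in *Marco*, *Mrc1* (3 times), *Cd68*, and *Trem2*, and in 23.3% of all 32851 promoter windows of this length. The AP-1 site matched in *Cd68* (2 times) and *Trem2*, and in 6.75% of all windows. CATGTG matched in *Mrc1* (2 times) and in 12.3% of windows, and the C/EBP site in *Cd68* and in 9.56%. The E-box CACGTG matched in none of the 7 and in 6.02% of windows, and *Cd163*, *Lyz2*, and *Gpnmb* held no match to any of the 5. No 2 matches in the printed windows overlapped. A match describes letters and not binding.

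*Adgre1* encodes F4/80, the antigen used to stain mouse macrophages. Its scaled RPKM was 1.04 and 1.86 in WT saline, 3.37 and 0.958 in WT FAEE-SAP, 1.87 and 1.61 in cKO saline, and 1.86 and 1.61 in cKO FAEE-SAP. The highest and the lowest library were the 2 of WT FAEE-SAP, and all groups overlapped. The log2 change after FAEE-SAP in WT was 0.35 (SE 0.59), with an interval (95%) from −1.11 to 1.82, and in cKO it was 0.027 (SE 0.19), with an interval from −0.47 to 0.53. *Cd163* encodes the hemoglobin scavenger receptor of resident cells. It was at 1.82 and 1.46 in WT saline, 1.65 and 1.77 in WT FAEE-SAP, 1.85 and 2.18 in cKO saline, and 2.02 and 2.93 in cKO FAEE-SAP. The cKO libraries were all above the WT libraries, although neither genotype difference passed the test. It was 0.26 with saline (adjusted *P* = 0.999) and 0.48 with FAEE-SAP (adjusted *P* = 0.382). With 1 library left out, these ran from 0.13 to 0.37 with saline, and from 0.20 (without cKO FAEE-SAP 2) to 0.77 (without cKO FAEE-SAP 1) with FAEE-SAP. *Gpnmb*, a glycoprotein gene of the lysosomal stress program, was at 0.388 and 0.374 in WT saline, 0.492 and 0.471 in WT FAEE-SAP, 0.281 and 0.532 in cKO saline, and 0.313 and 0.498 in cKO FAEE-SAP. Its deposited RPKM reached the minimum in WT FAEE-SAP alone, so that it entered the comparisons with that group through it and was not tested in the others. The change in WT was 0.28 (SE 0.25, adjusted *P* = 0.529).

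*Lyz2* was at 43.2 and 52.3 in WT saline, 58.9 and 38.1 in WT FAEE-SAP, 57.3 and 50.7 in cKO saline, and 60.4 and 50.6 in cKO FAEE-SAP. All groups overlapped. The log2 change after FAEE-SAP was −0.010 in WT (SE 0.25), with an interval from −0.62 to 0.60, and 0.067 in cKO (SE 0.19), with an interval from −0.44 to 0.57. Its neighbor *Lyz1*, a lysozyme of Paneth cells in the intestine, is a near copy. Their coding sequences of 447 bases differ at 22 positions (identity 95.1%) and share a run of 118 identical bases. A read pair that lies wholly within such a run matches both genes, and how such reads were assigned is not given in the sources used here, so that both values are uncertain. Part of that run, coding bases 277 to 366 counted from the first base of the start codon, is printed once for both genes. Coding bases 61 to 120 hold 9 of the differences, which are in capitals. Both genes lie on chromosome 10, *Lyz2* at chr10:117277331-117282321 and *Lyz1* at chr10:117287797-117292868, each on the minus strand.
Lyz2 and Lyz1, 277 to 366: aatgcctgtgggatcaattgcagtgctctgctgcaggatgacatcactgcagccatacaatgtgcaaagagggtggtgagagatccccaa
Lyz2, 61 to 120: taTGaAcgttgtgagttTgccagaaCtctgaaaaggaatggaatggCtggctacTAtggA
Lyz1, 61 to 120: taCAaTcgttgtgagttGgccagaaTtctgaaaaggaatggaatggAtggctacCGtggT

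*Lyz1* itself was at 0.959 to 3.37 scaled RPKM, with the highest value in cKO saline 1, the library with the intestinal gene *Fabp2*. *Lyz2* was at 57.3 there, inside the range of the other libraries.

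Across comparisons, the scaled groups of 3 of the 9 genes did not overlap and were higher after FAEE-SAP in WT (*Cd68*, *Gpnmb*, and *Marco*), against 29.7% of all genes tested, and *Trem2* was lower, against 29.1%. *Trem2* was under the RPKM minimum in every library, so it is not among the genes that give the shares without overlap, here and in the next paragraph. *Gpnmb* reached that minimum in WT FAEE-SAP alone, the group where it was high, so that its place in these counts is a description. In cKO, 4 were higher without overlap (*Csf1r*, *Cd68*, *Mrc1*, and *Trem2*), against 19.6% of genes. None of the 7 tested in cKO was called by limma, where 0.0531% of all genes were called. At an unadjusted *P* under 0.05 there were 3 (*Mrc1*, *Cd68*, and *Csf1r*), where 9.42% of all genes tested were, and voom called 0. For WT this was 1 of the 8 tested (*Marco*), where 27.7% of all genes tested were. The median log2 change of the genes tested was 0.17 in WT (8 genes, 0.017 over all genes) and 0.59 in cKO (7 genes, −0.011 over all genes).

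With saline, *Cd163* and *Trem2* were higher in cKO than in WT without overlap, where 16.3% of all genes were, and *Csf1r* was lower, where 12% were. None of the 7 genes tested was called by limma, 0 had an unadjusted *P* under 0.05, and voom called 0. Of all genes, limma called 0%, with 187 of 8715 at an unadjusted *P* under 0.05. With FAEE-SAP, 5 of the 9 were higher in cKO without overlap (*Csf1r*, *Cd68*, *Mrc1*, *Cd163*, and *Trem2*), against 26.5% of genes, and *Marco* was lower, against 25.3%. None of the 8 tested was called by limma, where 1.27% of all genes were called. There were 3 at an unadjusted *P* under 0.05 (*Mrc1*, *Cd68*, and *Marco*), where 19.5% of all genes tested were, and voom called 0. As deposited the count turned round, with 1 of the 9 higher in cKO without overlap (*Trem2*), against 2.37% of all genes tested, and 5 lower (*Csf1r*, *Cd163*, *Lyz2*, *Gpnmb*, and *Marco*), against 81.3%.

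The interaction asks whether the response to FAEE-SAP differed between genotypes. It was 1.29 for *Mrc1* (SE 0.52, adjusted *P* = 0.375), 0.79 for *Csf1r* (SE 0.32, adjusted *P* = 0.375), and −1.10 for *Marco* (SE 0.72, adjusted *P* = 0.568). With 1 library left out, it ran from 0.74 (without WT FAEE-SAP 1) to 1.84 (without WT FAEE-SAP 2) for *Mrc1* and from −1.89 (without cKO FAEE-SAP 1) to −0.31 (without cKO FAEE-SAP 2) for *Marco*. None of the 8 genes tested was called by limma, where 0.0719% of all genes were. At an unadjusted *P* under 0.05 there were 2 (*Mrc1* and *Csf1r*), where 12.6% of all genes tested were, and voom called 0. A difference in response was not detected by this test, and the intervals (95%) were wide, from 0.079 to 2.50 for *Mrc1* and from −2.79 to 0.58 for *Marco*.

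The directions depended on the scaling. On RPKM as deposited, all 8 macrophage genes tested in WT were called higher after FAEE-SAP, where 65.9% of all genes were called higher, and the 1.24 shift of the median gene is contained in those values. Deposited *Lyz2*, for example, was 31.4 and 45.3 in WT saline and 119 and 73.8 in WT FAEE-SAP, a log2 change of 1.31. In cKO against WT with FAEE-SAP, deposited *Marco* (−2.25) and *Gpnmb* (−1.07) were called lower, where 39.6% of all genes were. *Gpnmb* is in both of these counts only through WT FAEE-SAP, the group where its deposited RPKM was high (0.996 and 0.911). *Marco* kept its direction on both scales in WT and between genotypes with FAEE-SAP. In that comparison of genotypes the deposited *Mrc1* groups overlapped. Deposited *Mrc1* was 2.01 and 4.36 in WT FAEE-SAP, cKO FAEE-SAP having 4.35 and 4.12, a log2 difference of 0.50 against 1.43 after scaling. *Csf1r*, *Cd68*, *Cd163*, and *Lyz2* changed direction between the scales in the FAEE-SAP comparison of genotypes.

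**Figure D3:**
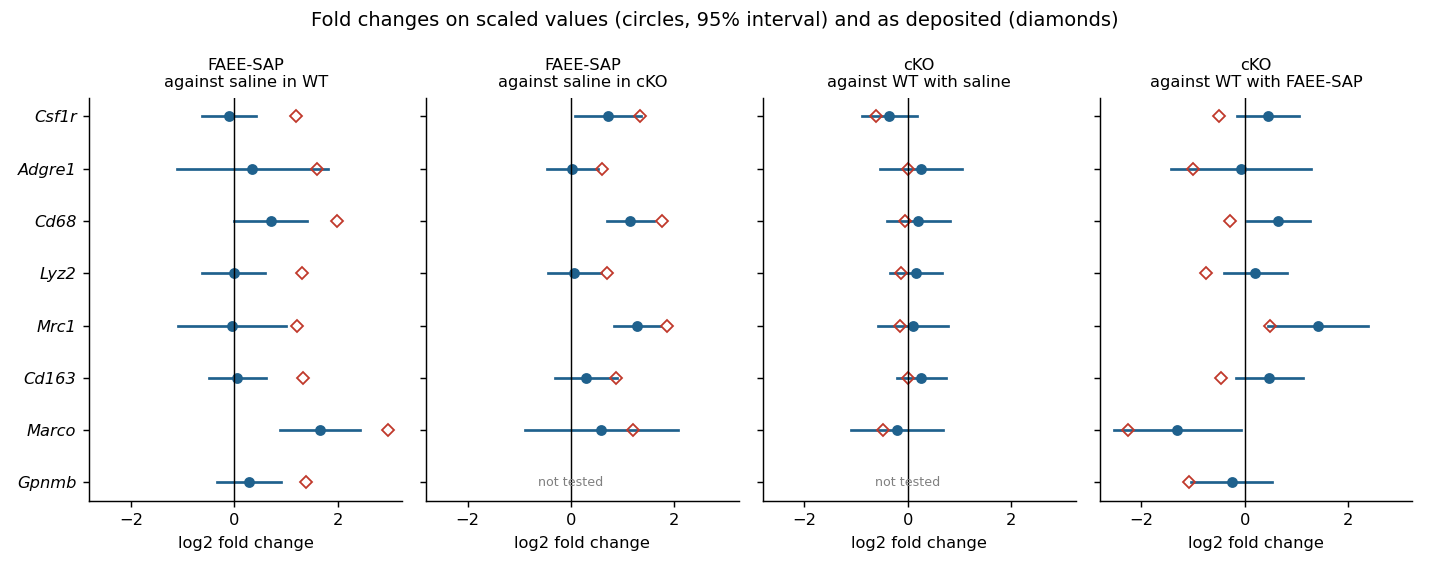
Log2 fold changes of 8 macrophage genes in the 4 pairwise comparisons, on scaled values (circles, with the 95% interval of the limma fit) and on RPKM as deposited (diamonds). The scaled change of *Marco* in WT was 1.66 and lay clear of 0, and in WT each diamond sits to the right of its own circle.

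Genes of other macrophage programs were read from the same fits, from lists written from general knowledge. The lists were written with earlier results of these data known, so that counts on them, here and below, are descriptions and not independent tests. In WT after FAEE-SAP, 3.08% of all genes were called higher and 3.86% lower. Of 23 tested pan-macrophage genes, 5 were called higher, the 4 largest being *Cd14*, the lipopolysaccharide co-receptor also made by neutrophils (3.39, adjusted *P* = 0.00288), *Lilrb4a* (2.23), *Fcgr1* (2.19), and *Lgmn* (1.59). Of 12 monocyte genes, 3 rose: *Chil3* (2.70), *Ccr1* (2.47), and *Vcan* (2.34). Of 9 genes of inflammatory activation, *Il1b* (3.52), *Clec4e* (2.26), and *Il1a* (1.68) rose and *Slc7a2*, an arginine transporter, fell by 1.78 on the log2 scale. The list of alternative activation had 7 genes tested, of which *Chil3* alone was called. Of 9 genes tested from the scavenger receptor list, *Msr1* rose (1.75), as did *Clec4a2* (1.60), which encodes an inhibitory C-type lectin receptor and not a scavenger receptor. Of 13 lipid-associated genes, *Hmox1* (2.10), *Spp1* (1.79), *Ctsl* (1.36), and *Fabp4* (1.21) rose, and *Lpl*, a lipase gene of fat and muscle as well, fell by 2.25 on the log2 scale. In WT saline and WT FAEE-SAP, mean scaled RPKM was 81.5 and 206 for *Ctsl*, 13.3 and 43.9 for *Spp1*, and 1.59 and 7.15 for *Hmox1*. For *Cd68* it was 2.23 and 3.70, and the part of cells other than macrophages in these levels was not tested. *Cebpb* (1.32) was the call among 10 lineage factors, and *Spi1*, which encodes PU.1, was at 0.611 and 1.18 in WT saline and 2.12 and 1.91 in WT FAEE-SAP without passing the test. None of the 4 tested genes of the CSF axis was called. Of the 23 genes called in these lists in WT, 9 reached the RPKM minimum in WT FAEE-SAP alone (*Il1b*, *Il1a*, *Clec4e*, *Ccr1*, *Vcan*, *Fcgr1*, *Msr1*, *Clec4a2*, and *Clec4n*). These could be tested only because they were high there, and the list counts that hold them are descriptions.

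Genes of resident macrophages moved in both directions in WT, where 5 of 12 tested were higher and 7 lower (median log2 change −0.40). After FAEE-SAP in cKO, 11 of 11 tested were higher (median 0.96, against −0.011 over all genes), where 45.2% of all genes tested were. Each genotype had 6 at an unadjusted *P* under 0.05, where 27.7% (WT) and 9.42% (cKO) of all genes were. Of 12 tested, *Ccl8*, a chemokine, fell by 1.81 and *Fcna*, a ficolin, fell by 1.05 on the log2 scale in WT after FAEE-SAP, whereas *Clec4n*, a dectin, rose by 2.23. The fall of *Fcna* depended on the scaling, since deposited RPKM was 1.87 and 2.42 in WT saline and 2.67 and 2.33 in WT FAEE-SAP, which overlap. In cKO against WT with FAEE-SAP, *Fcna* was called higher (1.81, SE 0.26, adjusted *P* = 0.0450). Its scaled RPKM was 1.32 and 1.21 in WT FAEE-SAP, cKO FAEE-SAP having 5.64 and 3.79, against 2.57 and 2.80 in WT saline and 3.79 and 5.26 in cKO saline. Of the 12 resident genes tested, 11 had a positive difference, where 50.2% of all genes tested had. An unadjusted *P* under 0.05 was found for 10 of the 12, where 19.5% of all genes had one, and these were 9 of the 11 and *Clec4n*, the one with a negative difference (−1.37). *Clec4n* reached the RPKM minimum in both WT FAEE-SAP libraries and in 1 of cKO FAEE-SAP. Their median log2 difference was 1.10, against −0.0078 over all genes. The summed level of the resident list (15 genes) was 23.7 and 28.6 in WT saline, 28.1 and 34.9 in WT FAEE-SAP, 33.9 and 29.2 in cKO saline, and 61.6 and 50.2 in cKO FAEE-SAP. Both cKO FAEE-SAP libraries were above the other 6 on this scale. As deposited, the list summed to 56.8 and 67.6 in WT FAEE-SAP, cKO FAEE-SAP having 64.5 and 49.0, so that the groups overlapped and the highest value was a WT one.

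The other calls between genotypes with FAEE-SAP were few, as 1.27% of all genes were called. *Cd14* was lower in cKO (−2.37, adjusted *P* = 0.0156), the call among 23 pan-macrophage genes. Its scaled RPKM was 14.3 and 12.6 in WT FAEE-SAP, cKO FAEE-SAP having 2.40 and 2.74, against 1.02 to 2.53 with saline. *Acod1*, which encodes the enzyme that makes itaconate in activated macrophages, was at 0.575 and 0.325 in WT FAEE-SAP and at 0 and 0.0126 in cKO FAEE-SAP and was called lower (−2.72, adjusted *P* = 0.0491), the call among 9 genes of inflammatory activation. It reached the RPKM minimum in WT FAEE-SAP alone, the group where it was high. *Lpl* was called higher (1.80, adjusted *P* = 0.0387). None of the 4 CSF-axis genes, 10 lineage factors, 12 monocyte genes, 9 genes of the scavenger receptor list, or 8 alternative-activation genes tested was called. In cKO after FAEE-SAP, in the interaction, and between genotypes with saline, no gene of these lists was called, where 0.0531%, 0.0719%, and 0% of all genes were. After FAEE-SAP in cKO, 20 of 21 tested pan-macrophage genes were higher (median log2 change 0.84) and 11 of 11 monocyte genes (1.03), where 45.2% of all genes tested were. For WT these were 17 of 23 (0.56) and 10 of 12 (0.60), where 51.5% were. Some, such as *Fcgr1* and *Vcan*, reached the RPKM minimum in cKO through FAEE-SAP alone, so that these counts are descriptions. In cKO only 2 of the 14 genes of inflammatory activation reached the RPKM minimum.

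Markers of other cells moved in the same libraries. Summed neutrophil markers (12 genes) were 1.86 to 4.38 with saline, 61.5 and 58.1 in WT FAEE-SAP, whereas cKO FAEE-SAP had 21.1 and 13.9. Most of the sum in WT FAEE-SAP was *S100a8* (18.6 and 15.8) and *S100a9* (33.1 and 29.2). In cKO FAEE-SAP these were at 4.39 and 2.63 and at 12.1 and 7.62. *Ly6g*, the defining marker, was listed at 0 in the 4 saline libraries and was at 0.0457 and 0.0670 in WT FAEE-SAP and at 0.0368 and 0 in cKO FAEE-SAP. *Cd14* and *Il1b* are also made by neutrophils, and the part of neutrophils in their levels, or in those of *Marco* and the other genes called above, was not tested. Summed adipocyte markers (6 genes, with *Fabp4* among them) were 23.3 and 36.8 in WT saline, 54.2 and 71.5 in WT FAEE-SAP, 45.5 and 23.9 in cKO saline, and 60.6 and 18.3 in cKO FAEE-SAP. In WT, 2 of the 5 tested were called higher, *Fabp4* and *Retn*, the latter reaching the RPKM minimum there through the FAEE-SAP libraries alone. *Adipoq*, the defining marker, was at 0.946 and 3.09 in WT saline and 1.20 and 2.31 in WT FAEE-SAP, which overlap, and the part of adipocytes in the levels of *Fabp4* and *Lpl* was not tested. Summed acinar markers (11 genes) were 244620 to 331514 with saline, 76820 and 80568 in WT FAEE-SAP, whereas cKO FAEE-SAP had 193211 and 213706. Summed pan-leukocyte markers were 17.0 and 37.6 in WT saline, 30.7 and 28.0 in WT FAEE-SAP, 21.5 and 18.1 in cKO saline, and 39.5 and 21.2 in cKO FAEE-SAP, and all groups overlapped but for cKO saline against WT FAEE-SAP. *Ptprc*, which encodes CD45 of all leukocytes, was at 1.30 and 3.14 in WT saline, 2.22 and 1.60 in WT FAEE-SAP, 1.28 and 1.18 in cKO saline, and 2.59 and 0.940 in cKO FAEE-SAP, with the highest values in the same 2 libraries as the lymph node markers. Summed markers of liver macrophages (4 genes) ranged from 1.79 to 2.39 in WT saline, 0.542 to 3.02 in WT FAEE-SAP, 2.23 to 3.94 in cKO saline, and 1.79 to 3.07 in cKO FAEE-SAP. Of these, *Clec4f*, the defining marker, was at or under 0.259 in every library and listed at 0 in both WT FAEE-SAP libraries, and *Timd4*, which is also on the resident list, was at 0.605 and 0.356 in WT FAEE-SAP, cKO FAEE-SAP having 1.07 and 1.08. The part of such cells in the resident list was not tested. Other summed markers were also higher in cKO FAEE-SAP than in WT FAEE-SAP without overlap. Fibroblast markers (7 genes) were 66.5 and 59.6 against 59.1 and 50.7, and mast cell markers (6 genes) 1.64 and 1.86 against 1.11 and 0.890. Mesothelium markers (4 genes) were 3.19 and 1.37 against 0.904 and 0.959. Those of dendritic, T, and B cells overlapped. The part of these cells in the resident list was not tested either.

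**Figure D4:**
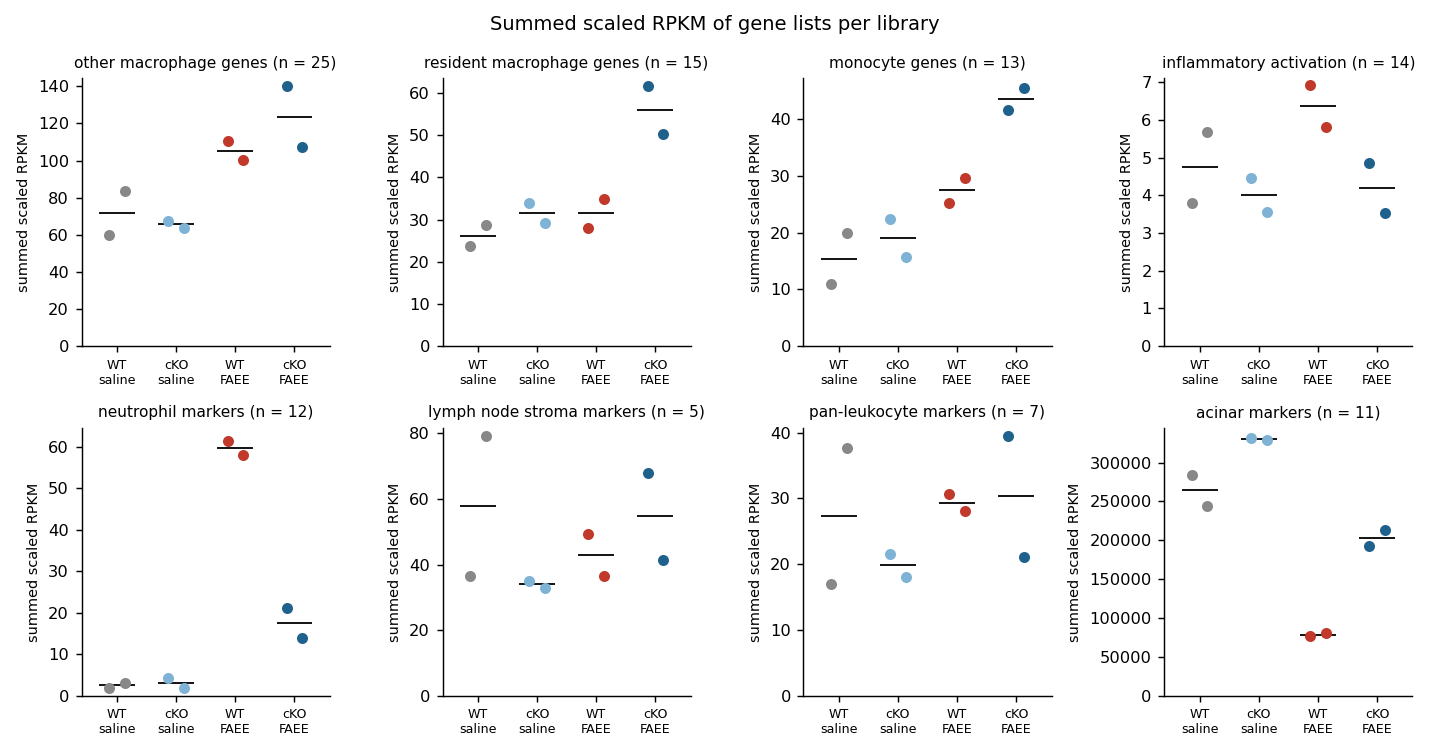
Summed scaled RPKM of 8 gene lists in each library (points) with the group mean (line), on linear axes that start at 0. Resident macrophage genes summed to 61.6 and 50.2 in cKO FAEE-SAP and at most 34.9 elsewhere, whereas neutrophil markers were highest in WT FAEE-SAP, at 61.5 and 58.1.

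The genes most like a member across the 8 libraries, by Pearson's *r* of log2(scaled RPKM + 0.1), are given as a description, since the libraries share treatment and composition. For *Adgre1* they were *Tubgcp4* (*r* = 0.975), *Fat1*, *Nagk*, *Mapk3*, and *Trappc3*. For *Lyz2* they were *Tpd52* (*r* = 0.958), *Gripap1*, *Ptprg*, *Rabepk*, and *Gstt2*. *Marco* and *Mrc1* were added to this list after their values were seen. *Marco* was most like *Slc15a3* (*r* = 0.988), *Vasp*, *Cfb*, *Clec4n*, and *Rasal1*, and *Mrc1* was most like *Lrig2* (*r* = 0.947), *Rab7b*, *Slc45a4*, *Zfp13*, and *Sbsn*. Among the members themselves, *Adgre1* and *Lyz2* were close (*r* = 0.864), both being highest or nearly so in WT FAEE-SAP 1 and lowest in WT FAEE-SAP 2.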

How the data were processed

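RNA-Seq of pancreas was analysed in 8 libraries grouped by the genotype and treatment in their labels. The authors deposited RPKM for 48709 genes per library. Per the methods and processing notes, libraries were directional and paired-end, reads were filtered with fastp, and mapping was to GRCm38.p6. How RPKM was computed is not given in the sources used here. By symbol, 46325 genes (95.1%) were matched to GENCODE vM21, the same build, for exonic lengths. Library totals were worked out as those at which low RPKM gave whole reads. Within 0.1 reads, 84.2% to 85.5% of values under 20 reads were whole, so that totals and reads are approximate, and intervals on reads cover counting error only.

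RPKM was scaled by the median of ratios, and log2(scaled RPKM + 0.1) was tested with limma 3.58.1 (R 4.3.3) with a trend in the variance. The pseudocount of 0.1 understates changes of low genes. The 4 pairwise comparisons each used their own 4 libraries, and the interaction all 8. The code was tested on simulated data. Alternatives were RPKM as deposited, trimmed means, quantile normalization, no filter, an RPKM minimum of 2, pseudocounts of 1 and 0.01, no trend, all 8 libraries in 1 model, an unadjusted *P*, a replicate block, leaving out each library, and, added after the data were seen, limma voom on worked-out reads (at least 10 in at least 2 libraries).

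The genes named were the 9 members, up to 4 called genes per other list and comparison with the largest change, and *Csf1*, *Il34*, *Spi1*, *Tyrobp*, *Ptprc*, and *Lyz1*. *Fabp4*, called in WT beyond those 4, and single markers of other cells were named as well. For *Adgre1* and *Lyz2*, and for *Marco* and *Mrc1* after their values were seen, the 5 genes most like them were named. The same for *Trem2* is not reported here. The members and lists were chosen with earlier results of these data known, so that they are descriptions and not independent tests. The deletion of *Pfkfb3* covers only some exons and was not checked here, since values are per gene. Promoter sequences are from RefSeq, GRCm38.p6, and coding sequences from GENCODE vM21.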

Additional observations from a re-analysis of the deposited data

Results flagged for a closer look

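*Trem2* was the gene whose libraries lay on opposite sides of their saline controls by genotype. After FAEE-SAP both WT libraries were below both WT saline libraries, and both cKO libraries were above both cKO saline libraries. With no minimum on RPKM, limma gave an interaction of 1.03 on the log2 scale (adjusted *P* = 0.459). On worked-out reads, voom gave 2.51 (SE 0.97, adjusted *P* = 0.389). Neither passed the threshold. The values rest on 4 to 40 reads per library.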

How the results depend on the processing

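The macrophage genes called in WT after FAEE-SAP numbered 1 in the analysis as reported and 8 as deposited. They numbered 0 with no filter, without the trend, with all 8 libraries in 1 model, and with the replicate block, with 0 to 1 when a library was left out. The gene was *Marco*, whose adjusted *P* was 0.0382 as reported and 0.0562 to 0.0794 in those 4 alternatives. In cKO, an unadjusted *P* with a 2-fold change gave 2 calls in place of 0, where 2.97% of all genes tested passed. For cKO against WT with FAEE-SAP there were 2 with an unadjusted *P* (8.39% of all genes), 2 as deposited, and 0 to 1 when a library was left out. For the interaction an unadjusted *P* gave 1 (7.02% of all genes). The replicate block changed no other count. Deviations of same-numbered libraries correlated at −0.17 (WT), 0.40 (cKO), −0.32 (saline), and 0.30 (FAEE-SAP), so that the numbers were not taken as pairs. The cause of these changes was not tested, except that the scale of deposited values carries the shift of the median gene.

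Directions reversed as deposited for *Mrc1* (1.21), *Lyz2* (1.31), and *Csf1r* (1.20) in WT. With saline they did for *Mrc1* (−0.16), *Cd163* (−0.0016), *Lyz2* (−0.12), and *Cd68* (−0.058). With FAEE-SAP they did for *Cd163* (−0.45), *Lyz2* (−0.75), *Cd68* (−0.29), and *Csf1r* (−0.50), and in the interaction for *Cd163* (−0.45), *Lyz2* (−0.62), and *Cd68* (−0.23). Under other alternatives, changes near 0 reversed. In WT these were *Lyz2* with quantile normalization (0.24), no filter (0.057), and voom (0.013), and *Mrc1* with no filter (0.020). In cKO they were *Adgre1* with no filter (−0.0016), 1 model (−0.0013), and voom (−0.010). For *Lyz2* they were quantile normalization with FAEE-SAP (−0.0078), and in the interaction quantile normalization (−0.094), no filter (−0.027), and voom (−0.010).

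With 1 library left out, log2 changes in WT ranged from −0.47 to 1.25 for *Adgre1*, −0.56 to 0.55 for *Mrc1*, −0.11 to 0.22 for *Cd163*, −0.28 to 0.35 for *Lyz2*, and −0.28 to 0.071 for *Csf1r*. In cKO they ranged from −0.056 to 0.27 for *Lyz2*, −0.068 to 0.19 for *Adgre1*, and −0.20 to 1.45 for *Marco*. With saline the ranges were −0.22 to 0.41 for *Mrc1*, −0.020 to 0.31 for *Lyz2*, −0.087 to 0.48 for *Cd68*, −0.15 to 0.65 for *Adgre1*, and −0.67 to 0.24 for *Marco*. With FAEE-SAP they were −0.95 to 0.77 for *Adgre1*, −0.11 to 0.50 for *Lyz2*, and −0.56 to 0.057 for *Gpnmb*. In the interaction they were −1.20 to 0.50 for *Adgre1*, −0.27 to 0.35 for *Lyz2*, −0.63 to 0.11 for *Gpnmb*, and −0.064 to 0.46 for *Cd163*. Where an arm was left with 1 library, that library was assumed to vary like the others.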
